A study of Homo sapiens with 6 samples.

Results

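HOX genes of the 4 human clusters were followed in HEK293T cells, with and without VPA (valproic acid), which blocks histone deacetylases. HEK293T is a line grown from human embryonic kidney and transformed, in which SV40 large T antigen is expressed. A gene was a member if its symbol was HOXA, HOXB, HOXC or HOXD followed by a number, or if it was a long non-coding RNA (lncRNA) gene of a cluster, namely HOTAIR, HOTTIP, HOTAIRM1, HAGLR or a HOX symbol ending in AS. The rule took 56 of the 47470 listed genes, 39 protein-coding and 17 lncRNA genes. The HOXA cluster on chromosome 7 held 17 members, HOXB on chromosome 17 held 14, HOXC on chromosome 12 held 14 and HOXD on chromosome 2 held 11. RNA was sequenced from 3 untreated samples and from 3 samples that received 1 mM VPA for 1 day. All 6 were labelled as wild-type cells of this line. The comparison asks which genes change their mRNA level when histone deacetylases are inhibited.

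HOX genes encode homeodomain transcription factors that give cells along the head-to-tail axis of an embryo their positional identity. Within a cluster, all coding genes are read in the same direction, and paralog numbers run from the 3' end, whose genes act early and towards the head, to the 5' end, whose genes act late and towards the tail, limb tips and urogenital tract. Polycomb proteins keep the clusters silent and trithorax proteins keep them active, while retinoic acid and CDX factors start their expression. Genes with the same paralog number in different clusters descend from 1 ancestral gene. The lncRNA genes lie between the coding genes, mostly on the opposite strand.

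The windows of 250 bases before the transcript start of 4 members are shown because their genes stand for the different responses described here: HOXD1 rose, HOXA2 was among the genes with the deepest fall, HOXA13 fell beside an lncRNA gene that passed no test, and HOXD11 had the highest level per kilobase. The sequences are RefSeq sequences of GRCh38.p14, written 5' to 3' on the strand of the gene. The coordinates are chr2:176188418-176188667 (plus strand) for HOXD1, chr7:27102684-27102933 (minus strand) for HOXA2, chr7:27200092-27200341 (minus strand) for HOXA13 and chr2:176107030-176107279 (plus strand) for HOXD11. Capitals mark matches, on either strand, to CCAAT (the CCAAT box), GGGCGG (the GC box), TATAAA (the TATA box), TGATTNAT (a joint PBX and HOX site) or TTTATNA (a CDX or posterior HOX site).
HOXD1: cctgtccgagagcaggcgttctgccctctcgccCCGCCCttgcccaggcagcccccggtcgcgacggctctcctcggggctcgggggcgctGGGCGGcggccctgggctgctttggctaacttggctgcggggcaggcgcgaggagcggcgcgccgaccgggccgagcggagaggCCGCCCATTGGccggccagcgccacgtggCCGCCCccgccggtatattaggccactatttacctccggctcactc
HOXA2: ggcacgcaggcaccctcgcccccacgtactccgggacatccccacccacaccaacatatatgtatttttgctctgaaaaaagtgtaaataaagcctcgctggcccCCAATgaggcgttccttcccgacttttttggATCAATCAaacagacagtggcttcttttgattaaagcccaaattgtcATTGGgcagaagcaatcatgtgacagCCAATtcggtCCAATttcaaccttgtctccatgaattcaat
HOXA13: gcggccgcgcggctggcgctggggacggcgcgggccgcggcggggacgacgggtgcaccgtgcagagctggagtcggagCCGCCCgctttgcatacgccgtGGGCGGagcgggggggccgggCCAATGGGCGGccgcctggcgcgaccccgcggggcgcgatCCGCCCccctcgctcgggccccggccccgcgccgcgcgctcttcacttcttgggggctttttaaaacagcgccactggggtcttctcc
HOXD11: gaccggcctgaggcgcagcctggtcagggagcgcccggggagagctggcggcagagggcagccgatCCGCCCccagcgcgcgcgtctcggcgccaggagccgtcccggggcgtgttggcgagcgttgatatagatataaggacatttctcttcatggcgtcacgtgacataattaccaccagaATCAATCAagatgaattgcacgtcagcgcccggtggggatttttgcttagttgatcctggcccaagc

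The HOXD1 window held 4 GC boxes and 1 CCAAT box, and 74.8% of its bases were G or C. The HOXA13 window was of the same kind, with 4 GC boxes, 1 CCAAT box and 78.0% G or C. The HOXA2 window held 4 CCAAT boxes and 1 match to the PBX and HOX motif, with 47.2% G or C. The HOXD11 window held 1 GC box and 1 match to the PBX and HOX motif, with 61.6% G or C. The HOXD1 window shared 102 bases with a window of HAGLR, which is read in the opposite direction, and the HOXA13 window shared 171 bases with that of HOTTIP. A window was at hand for 30 of the 56 members, and some of these had several starts, so that 41 windows were searched. CCAAT was found in 25 of the 41 (61.0%), against 32.0% of the 35116 windows of all genes. The windows are not separate, since HOXC4 and HOXC5 share 1 window, neighbours on opposite strands overlap, and HOXA3 has 7 windows and HAGLR 4. With overlapping windows joined, 21 of 36 member stretches held CCAAT (58.3%), against 32.9% of 30346 stretches of all genes. GGGCGG was found in 43.9% of the member windows and 42.6% of all windows, TATAAA in 14.6% and 10.7%, TTTATNA in 22% and 11.2%, and TGATTNAT in 4.88% and 2.48%. In HOXD1 and HOXA13, matches to the GC box and the CCAAT box touch or overlap. These matches are descriptions of the letters, and binding was not measured.

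Counts on genes totalled 18622267 to 18828495 per library, so by counting error alone a gene without a count was below a CPM of 0.16 (3 counts). A count of 0 can also come from how reads were assigned to genes, which was not tested. Within a condition the chi-square per gene between libraries was 1.62 to 4.82, above sampling noise, and no library was merged with another. The labels do not say that the replicates came from separate cultures, so p-values measure the spread between these samples, which may be technical. Of the HEK293T marker list, VIM, CDH2, NEFM, KRT8 and KRT18 were counted in all libraries and PAX8 was at 0 counts in the untreated libraries and 2 in the VPA-treated ones. Of 14 markers of other cell types, 4 were tested and all 4 were higher with VPA, where 32.9% of all tested genes were higher. They were the fibroblast markers DCN, LUM and COL1A1 and the kidney tubule gene LRP2. DCN, with 3 counts in all untreated and 133 in all VPA-treated libraries, passed the low-count filter only through the VPA-treated ones. The summed counts of COL1A1, LRP2 and the other 12 were 1273 to 1347 untreated and 3108 to 3262 with VPA, and without COL1A1 and LRP2 they were 26 to 31 and 303 to 310. The blood marker PTPRC had 0 and 12 counts, the liver marker ALB 1 and 1, and the tubule marker UMOD 0 in every library. The part of these markers in the HOX results was not tested, and in RNA of whole cultures fewer cells of a kind and less RNA per cell cannot be told apart.

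HOX RNA was lower after VPA. All members together had a CPM (counts scaled by the library total) of 1780.3, 1659.5 and 1672.9 untreated and 1146.1, 1140.2 and 1116.9 with VPA, 66.6% of the untreated mean. The groups did not overlap. The summed level with VPA was 67.1% of the untreated level for HOXA, 61.7% for HOXB, 77.6% for HOXC and 66.6% for HOXD.

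Of the 56 members, 51 had enough counts to be tested with edgeR's quasi-likelihood test, with Benjamini-Hochberg adjustment over all 15298 tested genes. At an adjusted p under 0.05, 35 members fell (68.6% of those tested), where 30.0% of all tested genes were lower. Only 5 members rose (9.80%), where 32.9% of all tested genes were higher. The other 11 passed in neither direction. Scaling the libraries to ribosomal protein genes instead put the median log2 fold change of all genes at 0.28. It gave 28 members lower and 7 higher, beside 5.58% and 60.5% of all tested genes. The median log2 fold change (VPA over untreated) was -0.61 for the members, from -1.39 to 1.22, and 0.0058 for all tested genes. When a 2-fold change in either direction (1 on the log2 scale) was asked for as well, 9 members were lower (17.6%), against 0.503% of all tested genes, and 2 were higher, against 12.0%. Several members sat near that threshold: HOXB6 was just inside at -1.04, and HOXA6 at -0.997, HOXD10 and HOXD11 at -0.99 and HOXB9 at -0.98 were just outside. The count of 9 became 14 when untreated replicate 2 was left out and 1 when the fold itself was tested against the threshold (glmTreat).

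Over all tested genes, both the share of calls and their direction differed with the level of the gene, so the members were also read within classes of mean normalized count. From the class of 50 to 200 to the class over 1000, the share of all genes that rose went from 52.9% to 14.6% and the median log2 fold change from 0.34 to -0.15. Normalized counts are counts scaled to the mean library. All 8 members over 1000 normalized counts fell, against 57.4% of all genes in that class, and their median log2 fold change was -0.98 against -0.15. Between 200 and 1000, 15 of 21 members fell, against 28.7%. Between 50 and 200, 10 of 13 fell, against 10.6%. Under 50, 2 of 9 fell and 2 rose, against 6.32% and 40.9%.

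Coding and lncRNA genes were also counted apart, without a test between them. Of 37 tested coding members, 28 fell, 3 rose and 6 passed in neither direction, with a median log2 fold change of -0.69. Of 14 tested lncRNA members, 7 fell, 2 rose and 5 passed in neither direction, with a median of -0.23. The lncRNA genes were low more often, with 6 of the 14 under 50 normalized counts against 3 of the 37 coding genes. The members whose main transcript shares no exon with another gene gave 13 lower and 2 higher of 17 tested, with a median of -0.61.

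**Figure D1:**
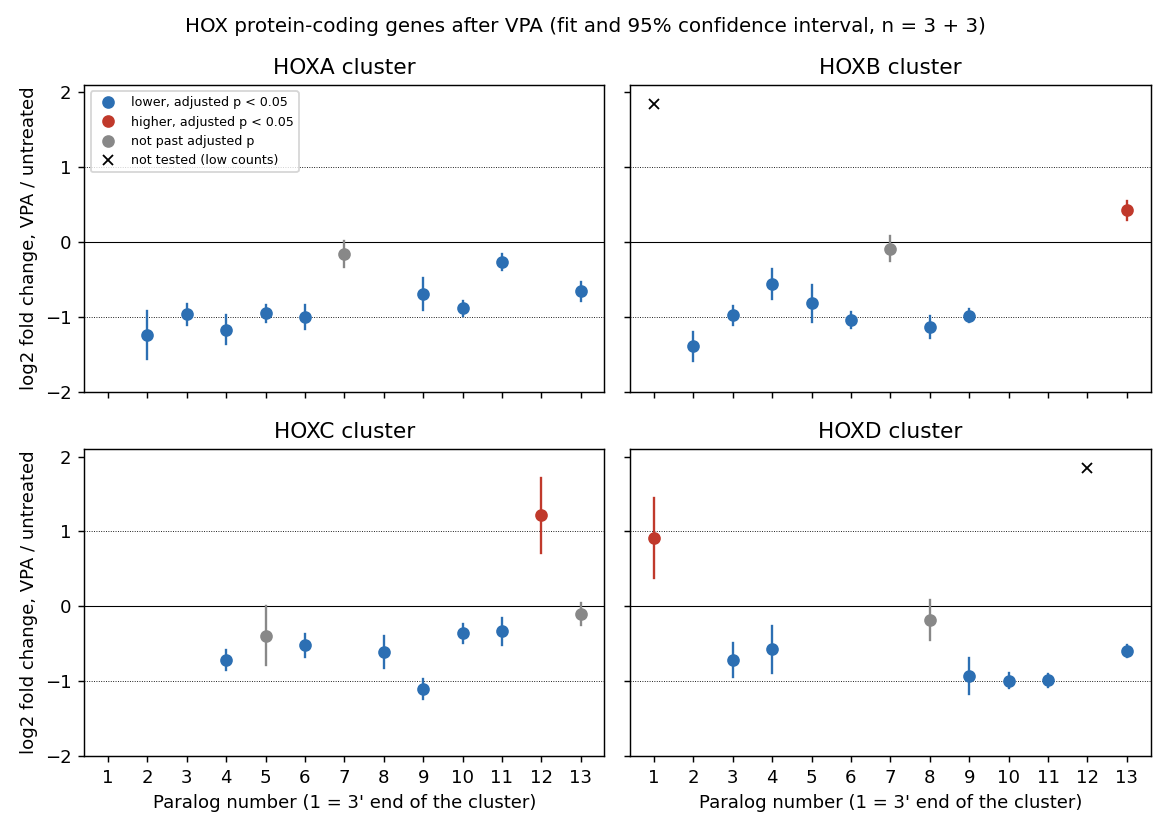
Log2 fold change (VPA over untreated, vertical axis) of HOX coding genes against their paralog number (horizontal axis), in 1 panel for each cluster, with bars for the 95% confidence interval from 3 untreated and 3 VPA-treated libraries. Points are blue where the gene fell, red where it rose and grey where it passed no test, and the crosses at the top are the 2 genes with too few counts. Not all genes are drawn. Most points lie below 0 in every panel, and the 3 red points are HOXB13, HOXC12 and HOXD1.

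Within the clusters, HOXA had 13 lower and 0 higher of 17 tested members (median log2 fold change -0.88), HOXB 8 lower and 1 higher of 11 (-0.81), HOXC 8 lower and 2 higher of 13 (-0.39), and HOXD 6 lower and 2 higher of 10 (-0.58). The 9 members past both thresholds downward were 5 of HOXA, 3 of HOXB, 1 of HOXC and 0 of HOXD. The order along the clusters was not uniform. Spearman's rho of the log2 fold change with paralog number, over coding genes, was 0.35 in HOXA (11 genes), 0.35 in HOXB (9), 0.75 in HOXC (9) and -0.60 in HOXD (8), and 0.25 over all 37. These are descriptions across neighbouring genes of the same libraries. In HOXC the lowest value was at HOXC9 and the highest at HOXC12, and in HOXD the highest was at HOXD1 and the lowest at HOXD10.

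The anterior genes, paralogs 1 to 3, gave 5 lower and 1 higher of 7 tested, with a median log2 fold change of -0.96. Paralogs 4 to 8 gave 11 lower and 0 higher of 15 (-0.61), and paralogs 9 to 13 gave 12 lower and 2 higher of 15 (-0.65). By paralog number, every tested gene of groups 2, 3, 4, 6, 9, 10 and 11 fell, though HOXD4, HOXC10, HOXA11 and HOXC11 were not called with the ribosomal protein scaling (adjusted p = 0.0865, 0.202, 0.953 and 0.561), under which the log2 fold change of HOXA11 was 0.0039. HOXC11 was not called with library totals either (adjusted p = 0.0581). Neither gene of group 7 passed the test, and with the ribosomal protein scaling both had positive log2 fold changes (0.12 for HOXA7 and 0.19 for HOXB7). The groups at the ends were mixed: HOXD1 of group 1 rose, and in group 13, HOXA13 and HOXD13 fell, HOXB13 rose and HOXC13 did not pass.

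HOXA2 and HOXB2, the paralog 2 genes that pattern the hindbrain and the second branchial arch, showed the deepest falls of the coding genes. HOXB2 had 327, 284 and 306 normalized counts untreated and 119, 119 and 111 with VPA. The groups were far apart, and the level fell to 38.1% (log2 fold change -1.39, SE 0.093, edgeR adjusted p = 2.62e-11). HOXA2 had 79.7, 77.5 and 78.7 normalized counts untreated and 37.4, 29.9 and 32.6 with VPA. It fell to 42.4% (log2 fold change -1.24, SE 0.16, edgeR adjusted p = 5.51e-07). The paralog 3 genes, which act in the neck and thymus region, followed with smaller changes. The log2 fold change was -0.96 for HOXA3, -0.98 for HOXB3 and -0.72 for HOXD3.

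HOXB1, an early hindbrain gene at the 3' end of its cluster, had 0 counts in all 6 libraries.

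In the HOXA cluster, HOXA5, a gene needed for lung and neck formation, had the highest level per kilobase of the coding genes. It had 1627, 1475 and 1429 normalized counts untreated and 797, 755 and 794 with VPA. It fell to 51.8% (log2 fold change -0.95, SE 0.055, edgeR adjusted p = 2.11e-12). Next to it, HOXA4 was past both thresholds, with 427, 333 and 364 untreated and 159, 181 and 161 with VPA (log2 fold change -1.17, SE 0.096, edgeR adjusted p = 8.15e-10). HOXA6 fell from 672, 543 and 606 to 314, 288 and 310, just short of the fold threshold. None of these groups overlapped.

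HOXA10, which acts in the uterus and the lumbar spine, had the smallest p of the cluster. It had 2233, 2146 and 1955 normalized counts untreated and 1145.3, 1150.4 and 1141.5 with VPA (means 2111 ± 142 and 1146 ± 4.47, SD, n = 3). The log2 fold change was -0.88 (SE 0.050, edgeR adjusted p = 1.80e-12). Its neighbour HOXA9, a regulator of blood stem cells, changed by -0.69. HOXA11, which acts in the forearm and the kidney bud, was higher in every untreated library than in any VPA-treated one but fell less, by 0.27 on the log2 scale (1019, 1017 and 1015 against 841, 821 and 873). HOXA13, a gene of digits and the urogenital tract, fell by 0.65, from 820, 847 and 778 to 481, 556 and 516 (edgeR adjusted p = 7.49e-09).

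In the HOXB cluster, HOXB9, a gene of the thoracic skeleton, had the highest level per kilobase in its cluster and the smallest p of all members. Its normalized counts were 4382, 4244 and 4420 untreated and 2175, 2282 and 2151 with VPA (means 4349 ± 92.6 and 2202 ± 69.6, SD, n = 3). It fell to 50.6% (log2 fold change -0.98, SE 0.041, edgeR adjusted p = 1.21e-14). HOXB6 and HOXB8 passed both thresholds. HOXB6 had 2030, 1873 and 2052 untreated and 1013, 934 and 952 with VPA (log2 fold change -1.04, SE 0.050, edgeR adjusted p = 1.27e-13). HOXB8, known for its part in microglia and grooming behaviour in mice, had 646, 586 and 570 untreated and 262, 277 and 282 with VPA (log2 fold change -1.14, SE 0.070, edgeR adjusted p = 7.48e-12). In each of them the lowest untreated library lay above the highest VPA-treated one. HOXB4, used to expand blood stem cells, changed by -0.56 and HOXB5 by -0.81.

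HOXB7 lies between HOXB6 and HOXB8 and shares no exon with another gene, yet it did not pass the test. It had 263, 264 and 262 normalized counts untreated and 243, 229 and 272 with VPA. The groups overlapped, and the log2 fold change of -0.084 had a 95% confidence interval of -0.26 to 0.09 (edgeR adjusted p = 0.392). The count of HOXB7 per count of HOXB8 was 0.407, 0.450 and 0.460 untreated and 0.930, 0.829 and 0.963 with VPA. This ratio is free of any scaling between libraries. The pair was chosen after its values were seen.

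HOXA7, the paralog of HOXB7, gave a like value. It had 279, 258 and 266 normalized counts untreated and 255, 243 and 222 with VPA (log2 fold change -0.16, 95% confidence interval -0.33 to 0.01, edgeR adjusted p = 0.104). The groups did not overlap, but the change did not pass the test. Its count per count of HOXA6 was 0.414, 0.474 and 0.438 untreated and 0.811, 0.843 and 0.716 with VPA, a ratio chosen after its values were seen. Exons of HOXA-AS3 on the other strand cover 74.8% of the main HOXA7 transcript. If strand was not used, reads there could be set aside as ambiguous and be missing from both counts.

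HOXB13, a gene of the prostate and the tail end of the body, rose while 8 of the other 10 tested HOXB members fell. It had 556, 567 and 542 normalized counts untreated and 806, 705 and 723 with VPA (means 555 ± 12.9 and 745 ± 53.8, SD, n = 3). All VPA-treated libraries were above all untreated ones, at 134% of the untreated mean (log2 fold change 0.42, SE 0.061, edgeR adjusted p = 3.58e-06). HOXB13 stands apart from its cluster by 98404 bases from HOXB9, where the other gaps between neighbouring HOXB genes were at most 12906 bases. Its count per count of HOXB9 was 0.127, 0.134 and 0.123 untreated and 0.371, 0.309 and 0.336 with VPA. As HOXB13 rose and HOXB9 fell, this ratio restates both changes and is no separate support. PRAC2, a gene in this gap, was not past the test (log2 fold change 0.16, edgeR adjusted p = 0.645).

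**Figure D2:**
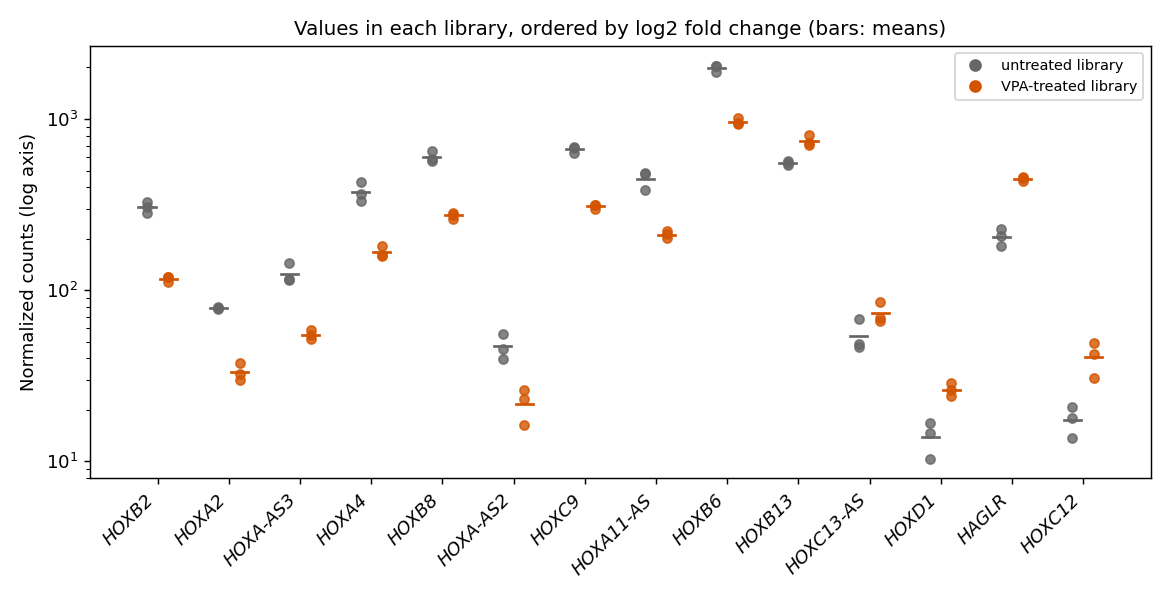
Normalized counts (vertical axis, log scale) in each of the 3 untreated (grey) and 3 VPA-treated (orange) libraries for the 11 members past both thresholds and for HOXB13, HOXD1 and HOXC13-AS, ordered by log2 fold change from HOXB2 to HOXC12. Points are libraries and bars are means, and HOXC13-AS is the one gene shown whose groups overlap.

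In the HOXC cluster, HOXC9, a thoracic gene, was the one member past both thresholds downward. Its level per kilobase was the highest of the cluster untreated (451, beside 443 for HOXC4) but not with VPA (210, beside 269 for HOXC4). HOXC9 had 687, 632 and 675 normalized counts untreated and 299, 315 and 313 with VPA. It fell to 46.5% (log2 fold change -1.10, SE 0.064, edgeR adjusted p = 2.57e-12). The genes on either side fell less. The log2 fold change was -0.61 for HOXC8 and -0.36 for HOXC10, whose libraries held 646, 659 and 719 untreated and 527, 539 and 512 with VPA. Towards the 5' end HOXC11 changed by -0.33 (edgeR adjusted p = 0.00260). HOXC13, a gene of hair and nails, had 644, 559 and 608 untreated and 618, 536 and 531 with VPA, and these groups overlapped (log2 fold change -0.10, 95% confidence interval -0.25 to 0.04, edgeR adjusted p = 0.197). Without VPA replicate 1 it was called lower (adjusted p = 0.0319), and with the ribosomal protein scaling it was called higher (0.17, adjusted p = 0.0464).

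HOXC4, HOXC5 and HOXC6 start at the same annotated position on chromosome 12, 54016888 in GRCh38.p14, and their gene spans are nested. HOXC4 changed by -0.72 and HOXC6 by -0.52 on the log2 scale, and both fell. HOXC5 had low counts, with 58.0, 39.8 and 43.1 normalized counts untreated and 32.6, 33.7 and 41.2 with VPA. Exons of other genes on the same strand cover 67.3% of its main transcript, so some of its reads may have been set aside as ambiguous. Its groups overlapped, and the log2 fold change of -0.39 did not pass (edgeR adjusted p = 0.0800, and 0.0454 without untreated replicate 2).

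HOXC12, a gene of the far 5' end that shares no exon with another gene, was the coding member with the highest fold change. It was low, with 20.7, 13.6 and 17.8 normalized counts untreated and 42.2, 49.1 and 30.6 with VPA (means 17.4 ± 3.57 and 40.7 ± 9.34, SD, n = 3). The VPA-treated libraries varied but all lay above the untreated ones (log2 fold change 1.22, SE 0.24, edgeR adjusted p = 0.000151). Its count per count of HOXC11 was 0.0905, 0.0670 and 0.0821 untreated and 0.244, 0.291 and 0.176 with VPA. As HOXC12 rose and HOXC11 fell, this ratio too restates both changes. HOXD12, its paralog, had 23 counts in all untreated libraries and 19 in all VPA-treated ones, too few to be tested.

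In the HOXD cluster, no member passed the fold threshold downward, but the abundant 5' genes lay close to it. HOXD11, which with HOXA11 shapes the forearm and the kidney, had the highest level per kilobase and the smallest p of the cluster. It had 3637, 3373 and 3347 normalized counts untreated and 1770, 1735 and 1718 with VPA (means 3452 ± 160 and 1741 ± 26.7, SD, n = 3). It fell to 50.4% (log2 fold change -0.99, SE 0.044, edgeR adjusted p = 3.27e-14). HOXD10, which acts in motor neurons of the lumbar cord, changed by the same size, -0.99, and HOXD9 by -0.93. An HOXD10 transcript shares exons with 26.5% of the main HOXD11 transcript on the same strand. Reads there may have been set aside as ambiguous and be missing from both counts.

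HOXD13, the digit gene at the 5' end, fell less than its neighbours. It had 3477, 3579 and 3576 normalized counts untreated and 2344, 2375 and 2322 with VPA (log2 fold change -0.59, SE 0.039, edgeR adjusted p = 2.54e-11). Its 95% confidence interval, -0.68 to -0.51, did not reach that of HOXD11, -1.08 to -0.90. HOXA13 fell by a like size, with an interval of -0.78 to -0.53. In the middle of the cluster, HOXD8 had overlapping groups (114, 125 and 129 against 89.1, 130 and 106) and a log2 fold change of -0.18 (edgeR adjusted p = 0.243, and 0.0445 without VPA replicate 2). HOXD4 changed by -0.57.

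HOXD1, at the 3' end, rose. It had 10.4, 14.7 and 16.8 normalized counts untreated and 24.0, 26.0 and 28.7 with VPA. The groups did not overlap, and VPA-treated cells had 188% of the untreated level (log2 fold change 0.91, SE 0.26, edgeR adjusted p = 0.00409). DESeq2 did not call it (adjusted p = 0.0689). HAGLR, an lncRNA gene that starts beside HOXD1 and is read the other way, had 180, 227 and 207 normalized counts untreated and 433, 457 and 450 with VPA (means 205 ± 23.6 and 447 ± 12.1, SD, n = 3). It rose to 218% (log2 fold change 1.13, SE 0.081, edgeR adjusted p = 9.94e-11). The spans of the genes share 291 bases, and exons of other genes on the opposite strand, HAGLR among them, cover 60.1% of the main HOXD1 transcript. Whether reads of HAGLR were counted for HOXD1 cannot be told apart from a rise of HOXD1 itself.

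HOXD3, the next coding gene after HAGLR, fell while HAGLR and HOXD1 rose. HOXD3 had 155, 148 and 146 normalized counts untreated and 98.7, 85.7 and 88.1 with VPA (log2 fold change -0.72, SE 0.11, edgeR adjusted p = 7.43e-06). The count of HAGLR per count of HOXD3 was 1.16, 1.54 and 1.42 untreated and 4.39, 5.33 and 5.11 with VPA, and that of HOXD1 per HOXD3 was 0.0667, 0.0993 and 0.115 untreated and 0.243, 0.303 and 0.326 with VPA. In both ratios all VPA-treated libraries lay above all untreated ones. The pairs were chosen after their values were seen.

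Levels per kilobase of the main GENCODE 44 transcript allow genes to be set beside each other. HOXD11 led, with a mean of 2025 normalized counts per kilobase untreated and 1021 with VPA. It was followed by HOXB9 (1682 and 852), HOXD13 (1467 and 972), HOXB6 (1184 and 576), HOXA5 (904 and 468), HOXD10 (882 and 443) and HOXA10 (831 and 451). With VPA, HOXD13 thus passed HOXB9 in the order of mean levels and HOXD11 stayed in front. The lowest tested coding genes were HOXC12, at 5.32 and 12.4, and HOXD1, at 7.39 and 13.9. These 2 were the low coding genes that rose, and HOXB13, the other coding riser, had a middle level of 183 and 245 per kilobase.

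**Figure D3:**
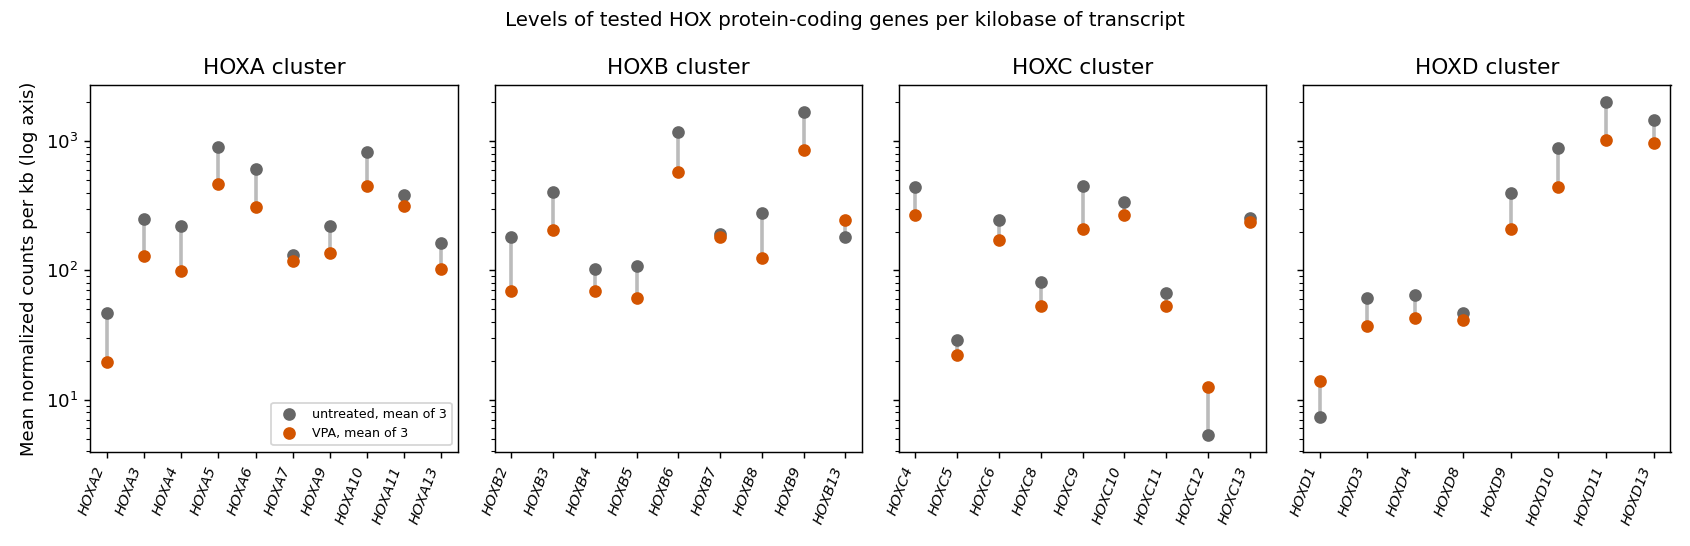
Mean normalized counts per kilobase of transcript (vertical axis, log scale) of the tested HOX coding genes of each cluster that are reported here, untreated (grey) and with VPA (orange), each the mean of 3 libraries. HOXD11 is the highest in both conditions, followed by HOXB9 untreated and by HOXD13 with VPA, and HOXC12 and HOXD1 are the lowest untreated and move up.

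The lncRNA genes of the HOXA cluster split in their response. HOXA-AS3, HOXA-AS2 and HOXA11-AS were past both thresholds downward. HOXA11-AS, read away from HOXA11, had 479, 386 and 481 normalized counts untreated and 220, 213 and 201 with VPA (log2 fold change -1.09, SE 0.088, edgeR adjusted p = 6.39e-10). HOXA-AS3 had 144, 115 and 115 untreated and 51.8, 58.8 and 54.6 with VPA (-1.18, SE 0.14, edgeR adjusted p = 1.50e-07). HOXA-AS2, which starts within the annotated span of HOXA3, had 45.6, 39.8 and 55.6 untreated and 23.0, 26.0 and 16.3 with VPA (-1.11, SE 0.21, edgeR adjusted p = 0.000125). The groups of all 3 were apart. HOXA11-AS fell by more than HOXA11, whose confidence interval was -0.37 to -0.16 against -1.27 to -0.90 for HOXA11-AS. Their RefSeq spans are 175 bases apart. In GENCODE, exons on the opposite strand cover 40.4% of the main HOXA11-AS transcript and 27.2% of the main HOXA11 transcript. For HOXA-AS3 this share is 55.9%. If strand was not used, reads there could be set aside as ambiguous and be missing from the counts. The difference between HOXA11-AS and HOXA11 is therefore uncertain.

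HOTAIRM1, a myeloid lncRNA gene at the 3' end of the cluster, fell slightly. It had 575, 510 and 501 normalized counts untreated and 465, 440 and 443 with VPA (log2 fold change -0.23, SE 0.066, edgeR adjusted p = 0.00424), and the call was lost when libraries were scaled by their totals (-0.10, adjusted p = 0.206) or by ribosomal protein genes (0.037, adjusted p = 0.659). HOTTIP, which recruits WDR5 and MLL to the 5' end of the HOXA cluster, lies 329 bases from HOXA13. It was low, with 29.0, 31.4 and 26.2 untreated and 38.3, 21.2 and 36.4 with VPA, and its groups overlapped (log2 fold change 0.15, 95% confidence interval -0.33 to 0.62, edgeR adjusted p = 0.594). Without VPA replicate 1 its log2 fold change was -0.0041. HOXA10-AS, of which 87.6% of the main transcript overlaps exons on the other strand, had a log2 fold change of -0.22 (edgeR adjusted p = 0.118, and 0.0489 without VPA replicate 1).

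In the HOXC cluster, HOTAIR, which acts on the HOXD cluster from a distance through Polycomb, fell to 64.0% of its untreated level. It had 201, 202 and 229 normalized counts untreated and 131, 136 and 137 with VPA (log2 fold change -0.64, SE 0.096, edgeR adjusted p = 5.20e-06). HOXC13-AS, which overlaps HOXC13 by 813 bases of span, was called higher, but its groups overlapped, with 46.6, 68.1 and 48.3 untreated and 69.0, 66.5 and 85.2 with VPA (log2 fold change 0.44, SE 0.16, edgeR adjusted p = 0.0253). DESeq2 did not call it (adjusted p = 0.160), and it was not called without untreated replicate 1, untreated replicate 3 or VPA replicate 3 (adjusted p = 0.110, 0.0966 and 0.141). HOXC-AS2, with 20.7, 11.5 and 23.1 untreated and 9.585, 10.6 and 9.576 with VPA, was called lower (-0.89, SE 0.32, edgeR adjusted p = 0.0200). That call was likewise lost by DESeq2 (adjusted p = 0.126) and without untreated replicate 1, untreated replicate 3 or VPA replicate 3 (0.0648, 0.106 and 0.0522), and with the ribosomal protein scaling (0.0968).

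The remaining lncRNA genes gave little. HOXB-AS3 was called lower with overlapping groups, 114, 121 and 103 untreated and 71.9, 103 and 85.2 with VPA (log2 fold change -0.38, edgeR adjusted p = 0.0177). DESeq2 did not call it (adjusted p = 0.0768), nor did edgeR without untreated replicate 2 or VPA replicate 1 (0.0755 and 0.104), with library totals (0.122) or with the ribosomal protein scaling (-0.11, adjusted p = 0.494). HOXB-AS1, HOXC-AS1 and HOXD-AS2 passed in neither direction, with log2 fold changes of 0.30 (edgeR adjusted p = 0.280), 0.0063 (0.985) and 0.071 (0.788). With the ribosomal protein scaling HOXB-AS1 was called higher (0.57, adjusted p = 0.0348). HOXB-AS2 had 3 counts in all untreated and 0 in all VPA-treated libraries, HOXB-AS4 had 1 and 4, and HOXC-AS3 had 28 and 22, all too few to be tested.

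**Figure D4:**
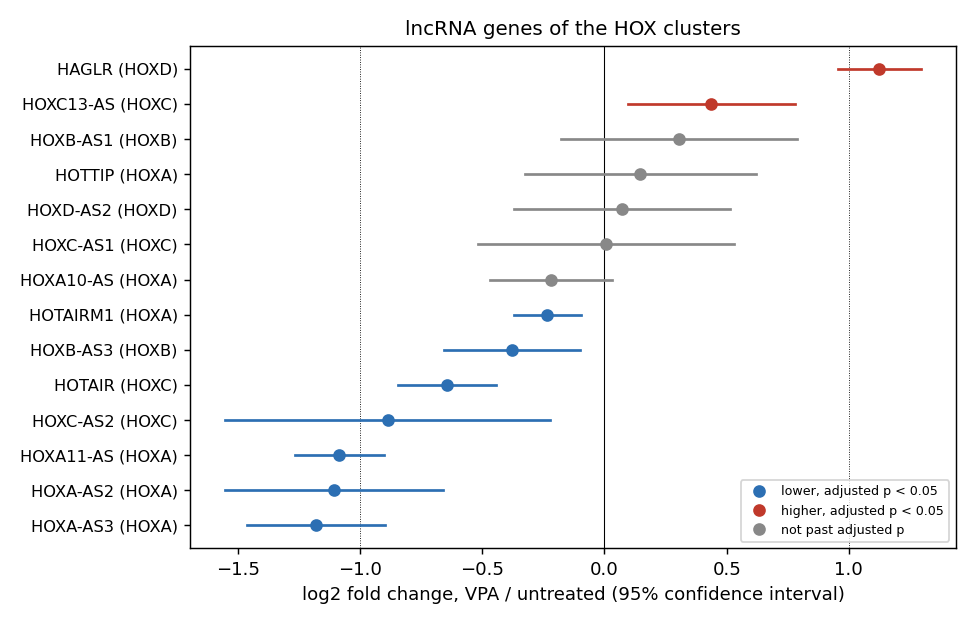
Log2 fold change (VPA over untreated, horizontal axis) of the 14 tested lncRNA genes of the HOX clusters, ordered by value, with bars for the 95% confidence interval from 3 untreated and 3 VPA-treated libraries. HAGLR at 1.13 and HOXA-AS3 at -1.18 are the ends of the order, and wide bars mark the low genes such as HOXC-AS2 and HOXC-AS1.

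Of 17 tested genes that border the clusters, 5 rose (29.4%) and 7 fell (41.2%), shares near those of all tested genes (32.9% and 30.0%), with a median log2 fold change of -0.036. With the ribosomal protein scaling 10 were higher and 2 lower, beside 60.5% and 5.58% of all tested genes. TTLL6, which modifies tubulin and lies beyond HOXB13, rose from 13 counts in all untreated libraries to 114 in all VPA-treated ones (log2 fold change 2.98, edgeR adjusted p = 1.57e-07). SNX10, a sorting nexin on the HOXA side, rose by 0.67, and CBX5, the heterochromatin protein gene near HOXC, fell by 0.60. MTX2 and HNRNPA3, near HOXD, fell by 0.30 and 0.46 on the log2 scale, but MTX2 was not called with the ribosomal protein scaling (adjusted p = 0.653). The read-through gene HOXA10-HOXA9 went from 135 to 32 counts (log2 fold change -2.18, edgeR adjusted p = 8.28e-08). Reads on exons it shares with HOXA9 or HOXA10 may have been set aside as ambiguous, so these counts may be only part of its reads.

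HOX proteins bind DNA with PBX, MEIS and PKNOX cofactors, and all 9 cofactor genes were tested. Of these, 6 fell (66.7%, against 30.0% of all tested genes), among them PBX2, PBX3, MEIS1, MEIS2 and PKNOX1, with log2 fold changes from -0.21 (MEIS1) to -0.69 (MEIS2). PBX4, MEIS3 and PKNOX2 rose (33.3%, against 32.9%). With the ribosomal protein scaling 3 were lower, PBX2, MEIS2 and PKNOX1, beside 5.58% of all tested genes. MEIS1 had a log2 fold change of 0.060 there. MEIS3 rose by 1.77 (SE 0.075, edgeR adjusted p = 1.54e-14), from 651 to 2411 counts, and was the one cofactor past the fold threshold.

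Of 9 tested upstream regulators of HOX genes, 4 rose (44.4%) and 3 fell (33.3%), beside 32.9% and 30.0% of all tested genes (median log2 fold change -0.10). EGR2, the hindbrain factor that activates the paralog 2 genes, was scarce, with 10 and 71 counts, and rose by 2.66 (edgeR adjusted p = 7.23e-06). The retinoic acid receptor gene RARG rose by 0.71, and RARA and RARB did not pass (-0.15 and -0.10). Of the retinoic acid degrading enzymes, CYP26B1 rose by 0.76 and CYP26A1 fell by 0.82. The caudal factor gene CDX2 fell by 0.37, a call lost with the ribosomal protein scaling (-0.098, adjusted p = 0.124), and CDX1 and CDX4 were at 0 counts in all libraries.

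Of 17 tested chromatin regulators of the clusters, 3 rose (17.6%, against 32.9% of all tested genes) and 8 fell (47.1%, against 30.0%), none past the fold threshold (median log2 fold change -0.064). All that fell but EED and BMI1 lay over 1000 normalized counts, where 57.4% of all tested genes fell. Others of the list lay there too and did not fall, KMT2A and SUZ12 among them. The share of falls in this list is thus not set apart from that of genes of like level. Apart from that of BMI1 these falls were small, and the calls rest on the scaling. With ribosomal protein genes WDR5 was the one of them still called lower (-0.11, edgeR adjusted p = 0.0267). BMI1 had -0.49 there but was not called (edgeR adjusted p = 0.0627). With that scaling 9 genes of the list were called higher, beside 60.5% of all tested genes. MEN1, EZH2 and EED had positive values there (0.057, 0.091 and 0.034). With TMM, the scaling used elsewhere here, the Polycomb members were mixed, with BMI1 at -0.76, EED at -0.24, EZH2 at -0.18, CBX7 at 0.45, and SUZ12 at -0.042 with an adjusted p of 0.423. On the activating side, also with TMM, WDR5 fell by 0.38, KMT2B and DOT1L by 0.30 each and MEN1 by 0.21, while KMT2A had a log2 fold change of 0.0023 (edgeR adjusted p = 0.965). The boundary factor gene CTCF fell by 0.37.

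**Figure D5:**
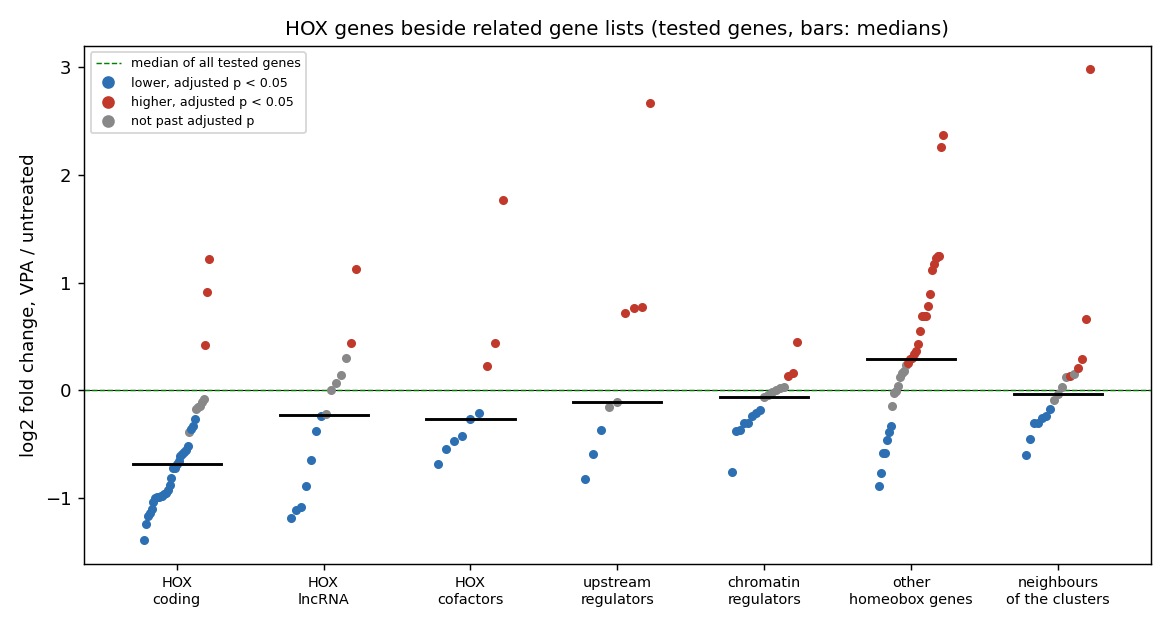
Log2 fold change (VPA over untreated) of each tested gene, as points, for HOX coding genes, HOX lncRNA genes and the related gene lists, each with its median as a bar. The medians are -0.69 for HOX coding genes, -0.23 for HOX lncRNA genes, -0.27 for cofactors, -0.10 for upstream regulators, -0.064 for chromatin regulators, 0.29 for other homeobox genes and -0.036 for the neighbours.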

How the data were processed

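RNA-seq libraries of untreated and VPA-treated HEK293T cells, 3 of each, were analysed. According to the paper's methods the authors trimmed reads with SOAPnuke and aligned them to hg38 with STAR (2.7.10b in the submitters' processing notes), and they deposited raw counts per gene from htseq-count (HTSeq 2.0.1 in the same notes). The libraries were strand-specific, but the strand setting and annotation of the counting are not given in the sources used here, so genes overlapping on opposite strands are uncertain. Reads at several places were set aside. The htseq-count output ends with 5 summary lines, which were not used: no-feature reads were 6.80% to 7.69% of each library, ambiguous reads 1.97% to 2.10% and multiply aligned reads 2.81% to 2.92%.

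All genes entered 1 edgeR 4.0.16 fit (R 4.3.3) (TMM normalization, filterByExpr with a count minimum of 10, robust quasi-likelihood fit, condition as the one term, prior count 0.125), with Benjamini-Hochberg adjustment over 15298 genes. "Rose" and "fell" mean an adjusted p under 0.05. The study's thresholds add a 2-fold change, 1 on the log2 scale. SE is the log2 fold change over the root of the F statistic. The biological coefficient of variation was 3.83%. Floors cover counting error only. Gene spans and the promoter windows are from RefSeq on GRCh38.p14, transcript lengths and exon overlaps from GENCODE 44, matched by symbol for all 56 members. Members and lists were chosen with earlier results of these data known. Members past the low-count filter are given, with values in every library for those past both thresholds, those with most counts per kilobase and those of smallest p in each direction in each cluster, and for others where groups or neighbours are compared. The fit was tested on simulated counts. Alternatives were DESeq2 1.42.0, other scalings (DESeq2 size factors, upper quartile, library totals, ribosomal protein genes), other filters, an FDR of 0.01, glmTreat, a replicate block and leaving out each library. Some genes enter the counts and medians of their lists but are not reported here by name. ChIP-seq and Hi-C data were not analysed here.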

Additional observations from a re-analysis of the deposited data

How the results depend on the processing

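Of 714 comparisons of the 51 tested members with an alternative, 670 kept their direction and side of the threshold. The scaling moved the values most: over all tested genes the median was 0.0058 (TMM), 0.071 (upper quartile), 0.14 (library totals) and 0.28 (ribosomal protein genes) on the log2 scale, and higher genes were 52.3%, 63.0%, 73.9% and 91.5% of the calls. A scaling moves all genes by nearly the same amount. The member median therefore had to stay 0.62 below that of all genes under each of these scalings (differences of -0.62 in all). Members higher and lower were 5 and 35 for TMM, DESeq2 size factors and upper quartile scaling, 5 and 32 for library totals and 7 and 28 for ribosomal protein genes.

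With the upper quartile the medians were -0.82 for HOXA, -0.32 for HOXC and -0.55 for all members. With library totals they were -0.75 for HOXA, -0.26 for HOXC, -0.45 for HOXD and -0.48 for all, and 5 members were past both thresholds downward. With ribosomal protein genes they were -0.61 for HOXA, -0.54 for HOXB, -0.12 for HOXC, -0.31 for HOXD and -0.34 for all, with 1 member past both thresholds downward, 2 HOXB members higher and 5 HOXC members lower. With at least 10 counts in every library the median of all was -0.59. DESeq2 called 3 members higher (1 of HOXC and 1 of HOXD) and 14 lower past both thresholds, with a HOXC median of -0.45. At an adjusted p under 0.01, 1 HOXC member was higher, and glmTreat called 0 higher and 1 lower. The cause of these shifts was not tested, apart from the scaling, which moves all genes by the same amount.

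Signs turned for HOXB7 (0.048) and HOXC13 (0.027) with library totals. They turned with ribosomal protein genes for HOXA7 (0.12), HOXA11 (0.0039), HOTAIRM1 (0.037), HOXA10-AS (0.051), HOXB7 (0.19), HOXC13 (0.17, called higher with an adjusted p of 0.0464) and HOXD8 (0.095). HOXC-AS1 turned with DESeq2 size factors (-0.0074), no filter (-0.015) and DESeq2 (-0.018). HOXB13, HOXC12, HOXD1 and HAGLR were positive under all alternatives.

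Leaving out 1 library at a time, the medians ran from -0.94 to -0.85 for HOXA and from -0.92 to -0.69 for HOXB, ranges that overlapped. They ran from -0.50 to -0.36 for HOXC, -0.63 to -0.56 for HOXD and -0.65 to -0.59 for all members. Members past both thresholds downward ran from 9 to 14 and HOXC members higher from 1 to 2. The log2 fold change ran from -0.11 to 0.12 for HOXC-AS1, -0.050 to 0.20 for HOXD-AS2 and -0.0041 to 0.37 for HOTTIP. The replicate block left 5 members higher and 35 lower and no member's call changed. Over all tested genes it called 35.0% higher and 33.3% lower, against 32.9% and 30.0% without it. The deviations of same-numbered samples had positive correlations of 0.13, 0.018 and 0.071, against -0.098 to 0.031 for other pairs. Each VPA-treated sample correlated best with its own number, replicate 2 only barely (0.0180 against 0.0178). Untreated replicate 2 correlated best with VPA replicate 3 (0.031). Whether the numbers mark pairs was not tested, and the main fit did not use them. Depth limits the members under 50 normalized counts, whose intervals are wide.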

Other observations

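Among 41 other homeobox genes, a list of transcription factors outside the HOX clusters, 34 were tested, of which 19 rose (55.9%, against 32.9% of all tested genes) and 7 fell (20.6%, against 30.0%), with a median log2 fold change of 0.29. With the ribosomal protein scaling 26 were higher and 5 lower, beside 60.5% and 5.58% of all tested genes. The risers included DLX3, a gene of skin and bone (2.37, SE 0.19, edgeR adjusted p = 3.82e-10), PAX2, a kidney gene (2.26, SE 0.14, adjusted p = 6.80e-12), LHX9 (1.25) and NKX2-1, a lung and thyroid gene (1.24). DLX1 and DLX2, the forebrain pair of the same family as DLX3, fell by 0.77 and 0.89 on the log2 scale. EN2 fell by 0.58 and PAX6, the eye gene, by 0.46. IRX1, IRX2 and LHX5 were at 0 counts in all libraries.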
